A study of Rattus norvegicus with 11 samples.

Results

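The injured rat spinal cord at 3 months (3 M) after contusion was compared with the injured cord at 1 month (1 M), using the 3 libraries of each time and leaving the uninjured controls out of the test. Every animal of the study was a female Sprague-Dawley rat, listed at 12 to 14 weeks in every group, and each library held tissue pooled from 3 rats. The 6 libraries compared came from rats that received a laminectomy and a moderate contusion at the T9 vertebra. The study also lists anesthesia, analgesics and an antibiotic around the surgery. The libraries differ in the time after spinal cord injury (SCI), and 1 M replicate 3 also in its batch. The listed age is that at which rats entered the study, so age at collection goes with time after SCI and the effects of age and time cannot be told apart. Sham controls, which had the laminectomy without the contusion, gave 3 libraries and were collected at the 6-month time. The 2 libraries at 6 months (6 M) after SCI completed the series of 11. RNA was taken from the cord at the lesion epicenter, read after poly-A selection, and counted per gene. A gene entered the comparison if its FPKM (a level scaled by transcript length and sequencing depth) was over 1 in at least 1 of the 6 libraries. This rule kept 14521 of 30443 genes, 13586 of 22075 protein-coding genes and 935 of 8368 long non-coding RNAs (lncRNAs). Levels are given below as CPM, read counts relative to the scaled total of the library, and a fold change is always 3 M over 1 M on the log2 scale with its standard error.

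As background, a contusion destroys gray matter at the epicenter within days and leaves a lesion that keeps changing for months. Blood-derived macrophages and resident microglia clear myelin debris, astrocytes form a border around the lesion, fibroblasts from the meninges and the vessel wall lay down a collagen-rich core, and Schwann cells can enter from the spinal roots. The ependymal cells that line the central canal carry motile cilia. Weeks to months after injury, some of these responses recede while others persist.

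Total counts were 22925109 to 49986531 in the 1 M libraries and 23384218 to 26060424 in the 3 M libraries. Replicates correlated at r = 0.977 to 0.995 across genes on the log2(CPM + 0.5) scale, and libraries of different times at r = 0.964 to 0.985. Library batch 2, as the study lists its sequencing and library preparation batches, held all 3 M libraries and 1 M replicates 1 and 2, and 1 M replicate 3 was made in batch 3. The comparison without 1 M replicate 3 is therefore also the comparison within batch 2. Neuronal, central myelin, astrocyte and Hox genes were all read in every library, whereas Ckm, Myh1, Myh2, Myh4, Ttn and other contractile genes of skeletal muscle stayed under the FPKM limit. Blood content was uneven: the summed level of 7 red blood cell genes was 875 to 2009 CPM at 1 M, 1581 and 1784 CPM in 3 M replicates 1 and 2, and 6524 CPM in 3 M replicate 3. Hemoglobin genes are therefore not read as changed, and their part in other results was not tested. A further 53 tested genes had 0 counts in all 6 libraries, among them Fth1, Rpl23a, Cldn5 and Ccr2, and could not be compared.

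Between 1 M and 3 M, 1042 genes were upregulated and 1098 were downregulated at an adjusted p under 0.05 in edgeR's quasi-likelihood test with Benjamini-Hochberg adjustment over all genes tested. These were 7.18% and 7.56% of the genes tested, 14.7% in both directions together. With the limits the study used for differentially expressed genes (DEGs), an adjusted p under 0.01 and a fold over 2, there were 131 upregulated genes (0.902%) and 194 downregulated genes (1.34%). Among protein-coding genes 993 rose and 1044 fell, and among lncRNAs 49 rose and 54 fell. Upregulated genes made up 48.7% of the calls, but 57.6% in limma on log2(FPKM + 1) and 60.3% in a fit of all 11 libraries. The 3 libraries of a time all lay above the 3 of the other time for 2496 genes on the higher side (17.2%) and 2516 on the lower side (17.3%).

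**Figure D1:**
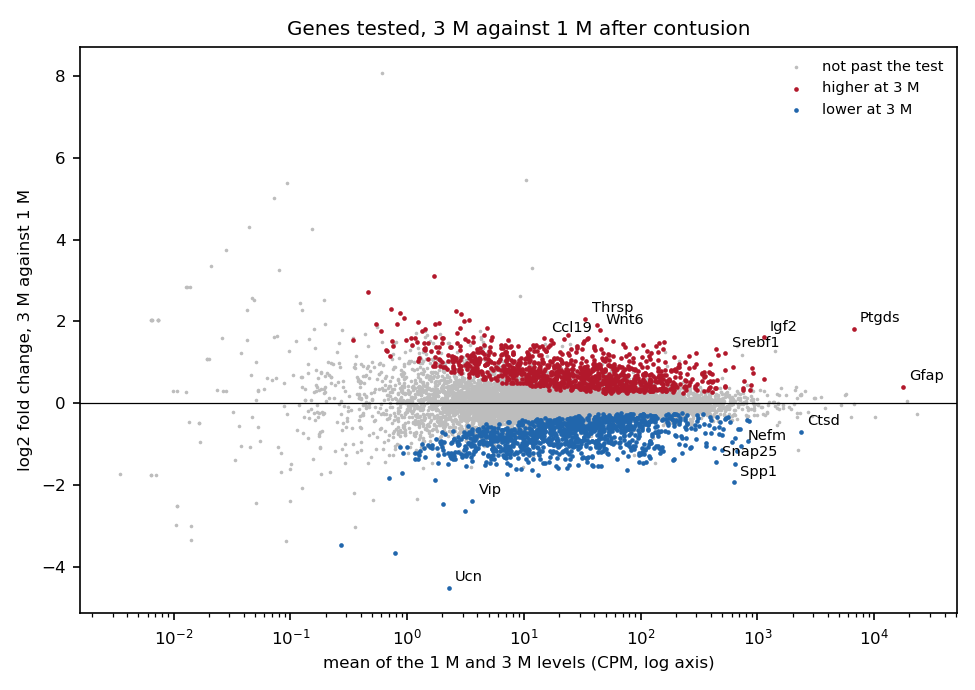
Each point is a gene tested between 3 M and 1 M after contusion, with the mean of its 1 M and 3 M levels in CPM on a log axis against its log2 fold change. Red points (1042) were higher and blue points (1098) lower at 3 M at an adjusted p under 0.05, and the labelled genes are described in the text.

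The number of calls depended on which library was left out. Leaving out 1 M replicate 1, 2 or 3 gave 1062, 588 and 1093 upregulated and 1178, 627 and 1289 downregulated genes, and leaving out 3 M replicate 1, 2 or 3 gave 420, 572 and 493 upregulated and 494, 573 and 544 downregulated genes. The fit within batch 2, with 1093 and 1289 genes, thus called more genes than the comparison of all 6 libraries. All 2140 genes called kept their direction in each of those 6 fits, and 370 upregulated and 435 downregulated genes passed in every one of them. A gene described below as upregulated or downregulated passed in all 6 of them unless an exception is given. Where a count of list members is followed by 6 numbers, these are the counts without 1 M replicates 1, 2 and 3 and then without 3 M replicates 1, 2 and 3. For every list count below, the shares over all genes tested were 7.18% higher and 7.56% lower at an adjusted p under 0.05.

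Of 19 pan-neuronal genes tested, 17 fell from 1 M to 3 M and none rose, with a median log2 fold change of -1.07. The 18 members whose libraries did not overlap between the times compare with 17.3% of all genes on that side. Synaptosomal Snap25, a core protein of vesicle fusion, was read at 724, 607 and 602 CPM in the 1 M libraries and at 237, 262 and 211 CPM in the 3 M libraries. Every 3 M library was far below every 1 M library, and the log2 fold change was -1.45 ± 0.12 (adjusted p = 0.00147). The synaptic vesicle protein Syp fell from 166, 149.9 and 155 CPM to 72.4, 78.7 and 73.8 CPM (-1.07 ± 0.07), and Rbfox3, which encodes the neuronal nuclear antigen NeuN, from 24.0, 24.9 and 23.5 CPM to 12.2, 12.1 and 11.5 CPM (-1.02 ± 0.09). The neurofilament chains that fill large axons moved alike, with log2 fold changes of -1.16 ± 0.13 for Nefl, -1.06 ± 0.12 for Nefm and -1.15 ± 0.14 for Nefh, and the related filament Ina showed the steepest drop of the list at -1.63 ± 0.14. Map2, the dendritic microtubule protein, was the member with the least clear difference: its libraries overlapped, at 57.1, 99.8 and 146 CPM against 81.2, 59.7 and 39.4 CPM (adjusted p = 0.239). Summed over the list, the level was 5070 to 5995 CPM at 1 M and 2346 to 2825 CPM at 3 M. In bulk tissue, fewer neurons and less RNA per neuron cannot be told apart. The count of 17 was 18, 15, 17, 15, 15 and 14 with a library left out, but 7 in a fit that took the spread from all 11 libraries.

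Genes of the release machinery fell with them. Of 19 synaptic vesicle genes, 15 were downregulated and none was upregulated, with a median of -0.97. The synapsin Syn1, which tethers vesicles, was at 161, 132 and 125 CPM at 1 M and at 65.4, 67.0 and 62.4 CPM at 3 M (-1.10 ± 0.11, adjusted p = 0.00166). Cplx1, a complexin that holds vesicles ready for release, showed a log2 fold change of -1.38 ± 0.14, and Vamp1 of -1.09 ± 0.13. Vamp2, a more widely expressed relative of Vamp1, had a mean of 308 CPM at both times (0.00 ± 0.08), which places it apart from its list. With a library left out the count was between 12 and 15, and it was 7 in the fit of 11 libraries.

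Among GABA and glycine genes, 11 of 15 fell and none rose (median -1.12). Slc6a5, the neuronal glycine transporter, was read at 67.8, 55.2 and 70.1 CPM at 1 M and at 24.0, 24.3 and 17.9 CPM at 3 M (-1.55 ± 0.15). The GABA-synthesizing enzymes Gad1 (-1.04 ± 0.12) and Gad2 (-1.12 ± 0.14) and the vesicular transporter Slc32a1 (-1.31 ± 0.18) were also downregulated. Among glutamate genes, 9 of 15 fell and none rose (median -0.89). The vesicular glutamate transporter Slc17a6, which marks most spinal excitatory neurons, went from 50.4, 39.2 and 46.4 CPM to 19.6, 18.9 and 16.4 CPM (-1.31 ± 0.12), and the obligatory NMDA receptor subunit Grin1 from 115, 93.1 and 85.2 CPM to 43.1, 43.0 and 41.0 CPM (-1.21 ± 0.12). Neither gene had overlapping libraries. Gria1 (-0.14 ± 0.27) and Homer1 (-0.21 ± 0.26) were glutamate members that did not pass. The inhibitory count stayed at 8 to 11 and the excitatory count at 7 to 9 with a library left out. In the fit of 11 libraries they were 1 and 4, and Gad1 had an adjusted p of 0.0573 there.

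Motor neuron, peptide and channel genes followed the same direction, with fewer members past the test. Of 11 motor neuron and cholinergic genes 8 fell and none rose. Acetylcholinesterase, Ache, was at 71.2, 62.4 and 56.6 CPM at 1 M and at 28.7, 34.2 and 30.4 CPM at 3 M (-1.03 ± 0.11), and the intermediate filament Prph, found in motor and sensory neurons, had a log2 fold change of -0.99 ± 0.13. Calca, which encodes the peptide CGRP of motor and sensory neurons, was at 58.9, 62.7 and 52.2 CPM against 14.6, 31.0 and 14.1 CPM (-1.54 ± 0.29), and passed except without 1 M replicate 2 or 3 M replicate 1, where the adjusted p reached 0.0574. The receptors Ret (-0.05 ± 0.10) and Gfra1 (0.26 ± 0.11) did not pass. The motor neuron count with a library left out was 7, 3, 8, 3, 7 and 4, and it was 1 in the fit of 11 libraries. Of 20 voltage-gated channel genes 8 fell and none rose, led by the calcium channel Cacna1b (-1.04 ± 0.09) and the potassium channel Kcnc1 of fast-spiking neurons (-1.51 ± 0.16). That count was 12, 4, 10, 4, 5 and 4 with a library left out and 1 with 11 libraries.

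Spinal neuropeptide genes held the steepest decrease of any gene called. Ucn, which encodes urocortin, a peptide of the corticotropin-releasing factor family, was at 4.72, 6.09 and 2.26 CPM at 1 M and at 0.194, 0.231 and 0.131 CPM at 3 M, which is 436 counts against 14 (-4.51 ± 0.49, adjusted p = 0.00214). On the scale of all 11 libraries its mean was 0.0398 CPM in controls, 4.18 CPM at 1 M and 0.177 CPM at 3 M, and the 6 M libraries were at 0.133 and 0.132 CPM. Ucn was thus a gene read clearly at 1 M and at very few counts in every other group. Vip, the vasoactive intestinal peptide, was at 7.45, 6.32 and 4.43 CPM against 0.738, 1.62 and 1.14 CPM (-2.38 ± 0.32). Of 16 peptide genes 9 fell, among them Adcyap1 (-1.17 ± 0.12), the enkephalin precursor Penk (-0.95 ± 0.15) and the substance P precursor Tac1 (-0.77 ± 0.13). The 1 member that rose, the nociceptin precursor Pnoc, was at 25.3, 32.0 and 20.6 CPM at 1 M and at 46.3, 40.0 and 40.9 CPM at 3 M (0.71 ± 0.16), and it did not pass without 3 M replicate 1, 2 or 3 (adjusted p up to 0.1). The count of 9 became 8, 5, 12, 5, 5 and 5 with a library left out and 3 with 11 libraries. Uts2, which encodes urotensin II of motor neurons, was at 20.5, 26.2 and 14.2 CPM against 4.51, 8.99 and 4.601 CPM (-1.75 ± 0.32), with an adjusted p of up to 0.0573 without 3 M replicate 1 or 3.

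**Figure D2:**
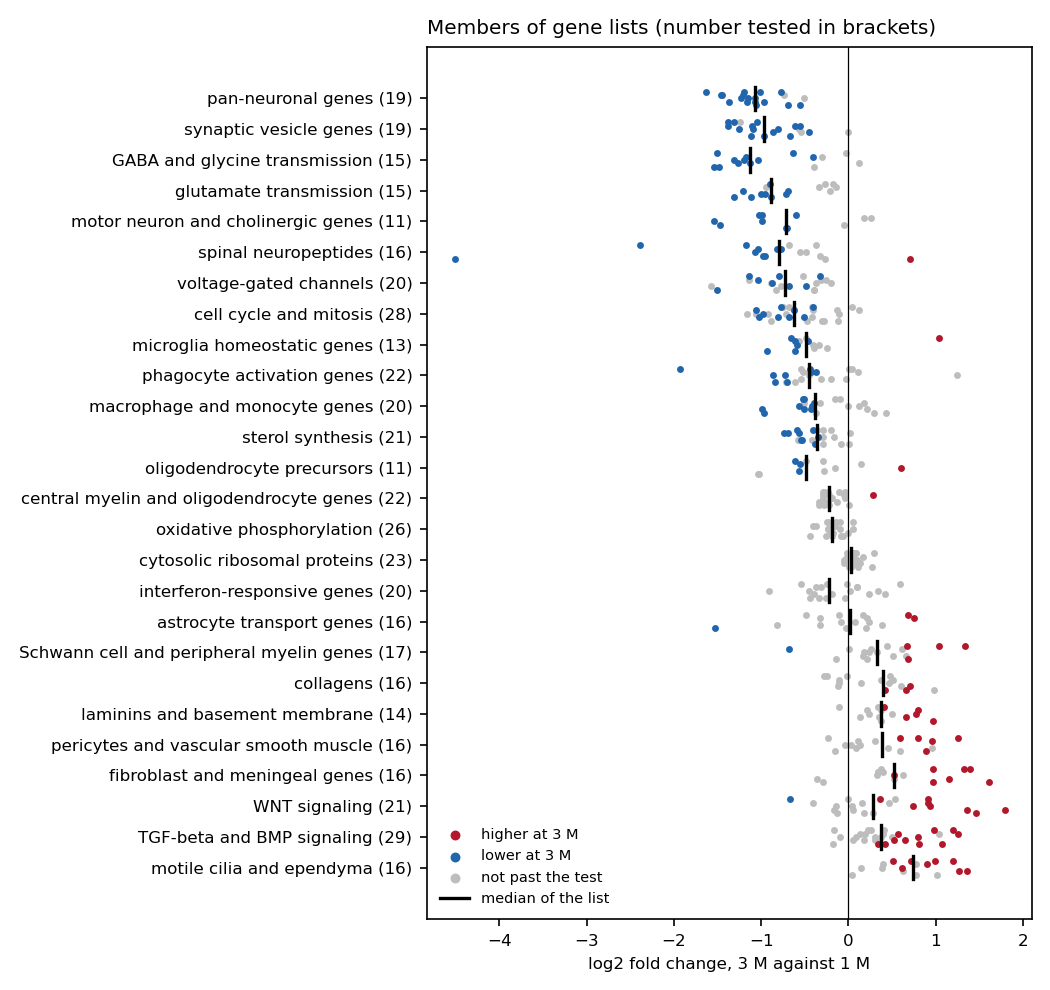
Each point is a tested member of a gene list, placed by its log2 fold change of 3 M against 1 M, with the list name and number tested on the vertical axis and the list median as a black line. Neuronal lists at the top have medians from -1.12 to -0.72, the ribosomal protein list lies near 0, and the cilia list at the bottom has a median of 0.74.

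Place among the other groups was read on the scale of all 11 libraries, without a test, because controls and 6 M libraries came from other batches and batch and group cannot be told apart there. Controls were also collected at the 6 M time, so distance from control, here and below, includes a difference in age at collection. Snap25 averaged 1784 ± 271 CPM in controls (SD, n = 3), 618 CPM at 1 M and 225 CPM at 3 M, and the 6 M libraries were at 455 and 98.5 CPM. Slc17a6 averaged 101 ± 14.8 CPM in controls, 43.5 CPM at 1 M and 17.5 CPM at 3 M, with 37.3 and 10.2 CPM at 6 M. The first 6 M library thus lay between 1 M and 3 M for both genes, and the second lay below every 3 M level. For all 17 downregulated pan-neuronal genes, the 1 M mean was under the control mean and the 3 M mean lower still, and the same order held for 9 of 9 glutamate genes, 8 of 11 GABA and glycine genes and 12 of 15 synaptic vesicle genes. Over all 2140 genes called, the 3 M mean was farther from the control mean than the 1 M mean, on the same side, for 1389 genes and closer to it for 445 genes (20.8%).

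**Figure D3:**
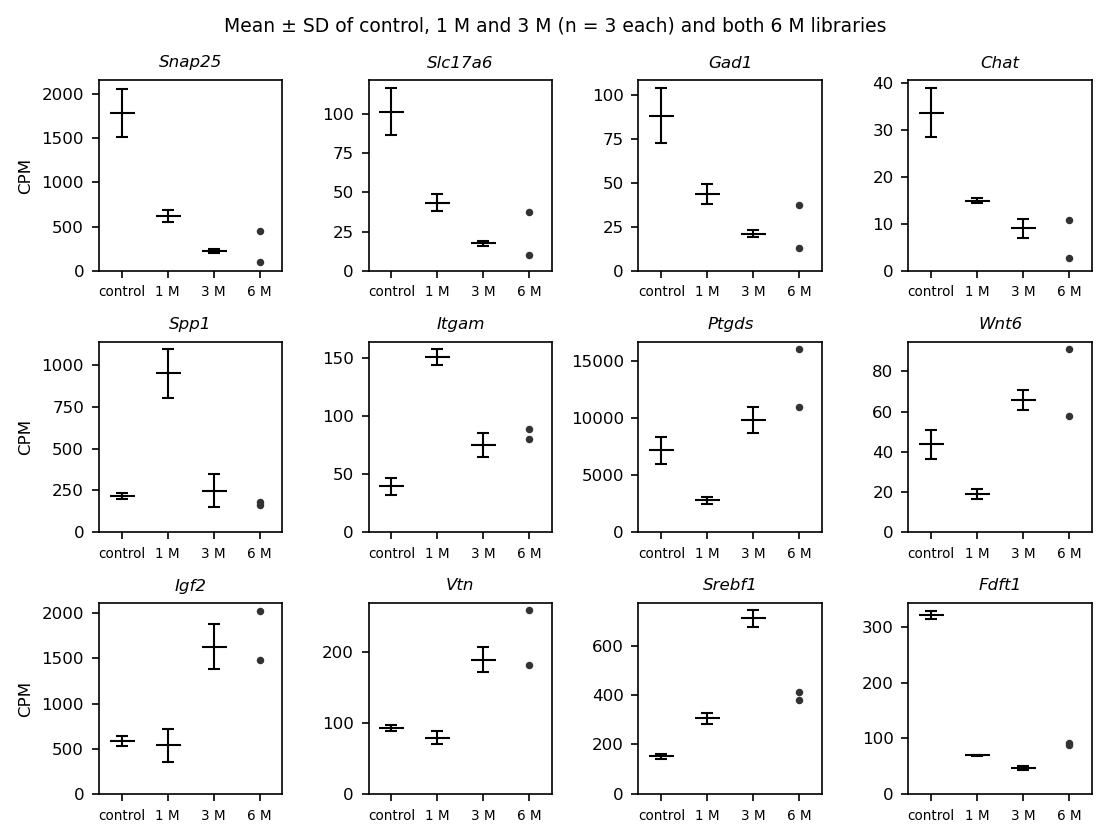
Levels in CPM on the scale of all 11 libraries for 12 genes, as the mean with SD of control, 1 M and 3 M (n = 3 libraries each) and as points for the 2 libraries of 6 M. Snap25 steps down from control to 1 M to 3 M, Spp1 is high at 1 M only, and Ptgds and Wnt6 are lower at 1 M than in any other group.

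Phagocyte genes that fell lay nearer to the controls at 3 M than at 1 M. Spp1, which encodes osteopontin and is made by activated microglia and macrophages, was at 1110 CPM in 1 M replicate 1, 824 CPM in replicate 2 and 1028 CPM in replicate 3, and at 242, 372 and 166 CPM at 3 M (-1.93 ± 0.28, adjusted p = 0.00515). Its control mean on the 11-library scale was 219 CPM, against 248 CPM at 3 M. Other phagocyte genes stayed well above control on that scale. Lyz2 averaged 246 CPM in controls, 890 CPM at 1 M and 659 CPM at 3 M, and Ctsd 845, 2799 and 1714 CPM. Lyz2 passed with 6 libraries but not in 4 of the 6 fits with a library left out. The integrin chains of the complement receptor CR3 fell by about the same factor: Itgam from 156, 151 and 165 CPM to 83.7, 86.8 and 66.8 CPM (-0.99 ± 0.11), and Itgb2 from 166, 161 and 156 CPM to 79.0, 89.9 and 77.8 CPM (-0.97 ± 0.08). No library of one time reached into the range of the other for these genes. Of 20 macrophage and monocyte genes 9 fell and none rose (median -0.38), and of 22 phagocyte activation genes 8 fell and none rose (median -0.45). All 17 of these lay closer to the control mean at 3 M than at 1 M. The lipid-hydrolyzing Lpl was among them (-0.87 ± 0.14). The lysosomal markers Cd68 (-0.85 ± 0.17) and Ctsd (-0.70 ± 0.15) passed with 6 libraries but not in 3 and 4 of the 6 fits with a library left out, with an adjusted p of up to 0.0808 for Cd68 and 0.0974 for Ctsd. Apoe (0.04 ± 0.18), Lgals3 (0.11 ± 0.19) and the scavenger receptor Cd163 (0.29 ± 0.31) did not pass. The macrophage count was 9, 7, 11, 2, 4 and 4 with a library left out, and the activation count 8, 4, 14, 2, 3 and 3.

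Homeostatic microglia genes lay mostly lower at 3 M, with 12 of 13 fold changes below 0. The libraries of 11 did not overlap on the lower side, against 17.3% of all genes. Of 13 homeostatic microglia genes 6 fell and 1 rose (median -0.48), the count of 6 becoming 7, 4, 7, 3, 4 and 4 with a library left out. The purinergic receptor P2ry12, a marker of resident microglia, was at 48.2, 44.2 and 50.7 CPM at 1 M and at 34.4, 32.5 and 26.4 CPM at 3 M (-0.62 ± 0.12). Tmem119 (-0.56 ± 0.26, adjusted p = 0.213) did not pass. Olfml3, a secreted glycoprotein of the same list, rose from 46.9, 55.0 and 53.2 CPM to 109, 85.0 and 124 CPM (1.04 ± 0.14). Among 15 complement genes 4 rose and 2 fell: the central component C3 went from 455, 467 and 544 CPM to 257, 242 and 214 CPM (-1.04 ± 0.11), while the protease inhibitor Serping1 was higher at 3 M (0.53 ± 0.10) but for the fits without 1 M replicate 2 or 3 M replicate 1 (adjusted p up to 0.0568). The complement counts were 3, 0, 3, 0, 4 and 1 for the higher side and 2, 1, 3, 1, 2 and 1 for the lower side with a library left out. Tnfrsf13c, the receptor for the B cell survival factor BAFF, fell from 5.31, 5.28 and 4.99 CPM to 2.17, 2.24 and 1.36 CPM (-1.43 ± 0.21). Of 6 B cell and plasma cell genes tested it was the only member past the test, and 5 did not pass. The summed level of that list was 104 to 113 CPM at 1 M and 98.6 to 105 CPM at 3 M.

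More chemokine genes were higher than lower at 3 M, with 5 of 19 higher and 2 lower. Fold changes were above 0 for 15 and below 0 for 4. With a library left out 3, 2, 3, 3, 4 and 2 were higher and 1, 1, 2, 1, 2 and 1 lower. Ccl19, a homeostatic chemokine that attracts CCR7-bearing lymphocytes and dendritic cells, was at 7.87, 8.17 and 6.31 CPM at 1 M and at 23.7, 21.2 and 22.7 CPM at 3 M (1.59 ± 0.13), and the neuronal chemokine Cx3cl1 rose as well (0.53 ± 0.06). Both genes were even across replicates. Ccl5 was at 1.22, 1.23 and 0.597 CPM against 2.60, 2.82 and 8.85 CPM (2.18 ± 0.55, adjusted p = 0.0362). The highest of these was 3 M replicate 3, without which the adjusted p was over the threshold at a log2 fold change of 1.39. Ubd, an interferon-induced ubiquitin-like gene, was at 0.420, 0.385 and 0.213 CPM against 3.11, 0.617 and 5.48 CPM (3.10 ± 0.75), and the cytotoxic cell gene Nkg7 at 0.210, 0.231 and 0.298 CPM against 0.544, 0.771 and 2.32 CPM (2.30 ± 0.63). Ubd passed in only 1 of the 6 fits with a library left out, without 3 M replicate 2, and Ccl5 and Nkg7 in only 1, without 3 M replicate 1. Of 9 T cell genes 2 rose (Cd2 and Nkg7, median over the list 1.14, Cd2 with an adjusted p of up to 0.0882), a count of 1, 0, 1, 1, 2 and 0 with a library left out. Fold changes of Cd4 (-0.27 ± 0.10), which macrophages of the rat also express, Cd8a and Cd8b (-0.58 ± 0.27) were below 0 and did not pass, and the summed level of the list was 115.6 to 127.4 CPM at 1 M and 97.5 to 116.2 CPM at 3 M. None of 20 interferon-responsive genes and none of 12 MHC class II and antigen presentation genes passed in edgeR with 6 libraries, although 5 and 1 had an unadjusted p under 0.05 and DESeq2 called 3 and 1.

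Of 28 cell cycle and mitosis genes 9 fell and none rose, with a median of -0.62, where 7.56% of all genes tested fell. The libraries of 17 did not overlap on the lower side, against 17.3% of all genes. Prc1, which bundles the microtubules of the dividing cell's midzone, was at 14.9, 13.3 and 9.98 CPM at 1 M and at 6.76, 4.86 and 6.84 CPM at 3 M (-1.05 ± 0.20, adjusted p = 0.0137). Top2a, the topoisomerase of replicating cells, was at 19.1, 16.8 and 12.5 CPM against 10.6, 5.13 and 8.15 CPM (-1.02 ± 0.27, adjusted p = 0.0450), and the kinetochore gene Ndc80 at 4.81, 4.51 and 4.22 CPM against 2.29, 2.01 and 2.59 CPM (-0.98 ± 0.17). Every 3 M library lay below every 1 M library for these genes. Mki67, the usual proliferation marker, showed -0.63 ± 0.20 and did not pass (adjusted p = 0.0852). On the 11-library scale Top2a averaged 4.67 CPM in controls, 15.5 CPM at 1 M and 7.61 CPM at 3 M, and 8 of the 9 genes lay closer to control at 3 M than at 1 M. The call was sensitive to single libraries, with counts of 5, 1, 16, 3, 2 and 2. Prc1 did not pass without 1 M replicate 2 (adjusted p = 0.0553) nor Ndc80 without 3 M replicate 1 (adjusted p = 0.0518), and no member passed in all 6 fits.

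Promoters are shown for members of this list that passed with 6 libraries. Promoters of mitotic genes often carry CCAAT boxes, bound by the factor NF-Y, upstream of a CHR element, through which the DREAM complex represses them in resting cells. Of the 28 genes, 21 were matched by symbol to RefSeq promoters of the rat build GRCr8, which run from 250 bases before the annotated start to 50 bases after it. The CHR letters TTTGAA, on either strand, were found in 12 of the 21 (57.1%) and in 18.1% of all 24206 RefSeq promoters of the same length, and the CCAAT box in 16 of the 21 (76.2%) against 37.8% of all promoters. A CCAAT box directly before the CHR letters can share 1 base with them. A match is a description of the letters and not evidence of binding. Of the 8 matched members past the test, 6 (75%) held the CHR letters and 5 (62.5%) a CCAAT box, Ndc80 had the CHR letters alone, and Bub1 and Aurka had neither. Both motifs were in Prc1, Ttk, Nusap1, Kif23 and Top2a, whose sequences from 100 bases before to 30 bases after the start follow 5′ to 3′ on the gene's strand with both motifs in capitals. They lie at chr1:143659381-143659510 (+) for Prc1, chr8:93634539-93634668 (+) for the kinase gene Ttk, chr3:127057195-127057324 (+) for Nusap1, chr8:71320555-71320684 (-) for the kinesin gene Kif23 and chr10:84473064-84473193 (-) for Top2a.
Prc1: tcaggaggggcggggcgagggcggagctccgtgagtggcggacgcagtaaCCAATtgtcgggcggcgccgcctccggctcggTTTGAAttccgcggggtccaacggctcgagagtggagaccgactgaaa
Ttk: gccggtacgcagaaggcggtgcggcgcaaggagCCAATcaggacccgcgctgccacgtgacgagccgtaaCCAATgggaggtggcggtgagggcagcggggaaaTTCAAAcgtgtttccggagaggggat
Nusap1: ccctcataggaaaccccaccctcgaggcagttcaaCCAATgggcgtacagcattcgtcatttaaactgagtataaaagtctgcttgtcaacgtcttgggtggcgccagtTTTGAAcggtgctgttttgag
Kif23: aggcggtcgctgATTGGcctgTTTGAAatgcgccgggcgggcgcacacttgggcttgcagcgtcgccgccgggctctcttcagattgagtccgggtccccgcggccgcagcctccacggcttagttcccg
Top2a: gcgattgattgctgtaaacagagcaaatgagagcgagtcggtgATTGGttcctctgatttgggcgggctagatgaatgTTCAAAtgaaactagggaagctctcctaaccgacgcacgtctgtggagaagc

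The CHR letters of Prc1, Ttk, Nusap1 and Top2a stand close to the start and downstream of every CCAAT box shown, while those of Kif23 stand 79 bases before the start, next to its box. The other 3 lists searched gave no match: the PU.1 letters GAGGAAGT were in 0 of 12 macrophage promoters (2.45% of all promoters), the X-box in 0 of 12 cilia promoters (0.112%) and the SRE in 0 of 14 sterol synthesis promoters (0.095%), which says only that these letters are not in the window read.

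Lipid synthesis genes moved in both directions. Of 21 sterol synthesis genes 9 fell and none rose (median -0.37). Fdft1, which makes squalene, was at 71.2, 71.3 and 74.0 CPM at 1 M and at 54.1, 47.0 and 46.9 CPM at 3 M (-0.55 ± 0.08, adjusted p = 0.00531), and Sqle, which oxidizes squalene, fell too (-0.53 ± 0.09). No 3 M library of Fdft1 reached the 1 M range. Hmgcs1, at the entry of the pathway, showed -0.74 ± 0.14, with an adjusted p of up to 0.0602 when any 3 M library was left out. The count of 9 was 12, 5, 9, 4, 4 and 3 with a library left out. Fdft1 averaged 321 CPM in controls on the 11-library scale, 69.3 CPM at 1 M and 47.1 CPM at 3 M, and all 9 genes were below control at 1 M and lower at 3 M. In the other direction Srebf1, the factor that drives fatty acid synthesis genes, rose from 345, 308 and 303 CPM to 735, 715 and 781 CPM (1.22 ± 0.09), and Thrsp, a lipogenic gene known from liver and fat, from 13.9, 11.1 and 13.9 CPM to 62.0, 50.5 and 50.5 CPM (2.07 ± 0.13). Thrsp averaged 47.1 CPM in controls on the 11-library scale, 12.4 CPM at 1 M and 51.8 CPM at 3 M, so 1 M was its low group. Of 15 fatty acid synthesis genes 3 rose and 3 were lower. The desaturase Fads1 rose (0.54 ± 0.06), while Acly (-0.47 ± 0.07) and Acss2 (-0.52 ± 0.06), which supply acetyl-CoA, fell. The desaturase Scd1 had the largest decrease of the list, from 27.4, 34.6 and 60.6 CPM to 20.0015, 19.1 and 19.1 CPM (-1.07 ± 0.27), and was not called without 1 M replicate 2 or any 3 M library (adjusted p up to 0.124). Srebf2, the sterol pathway's own regulator, was at 118 CPM at both times (0.00 ± 0.07).

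**Figure D4:**
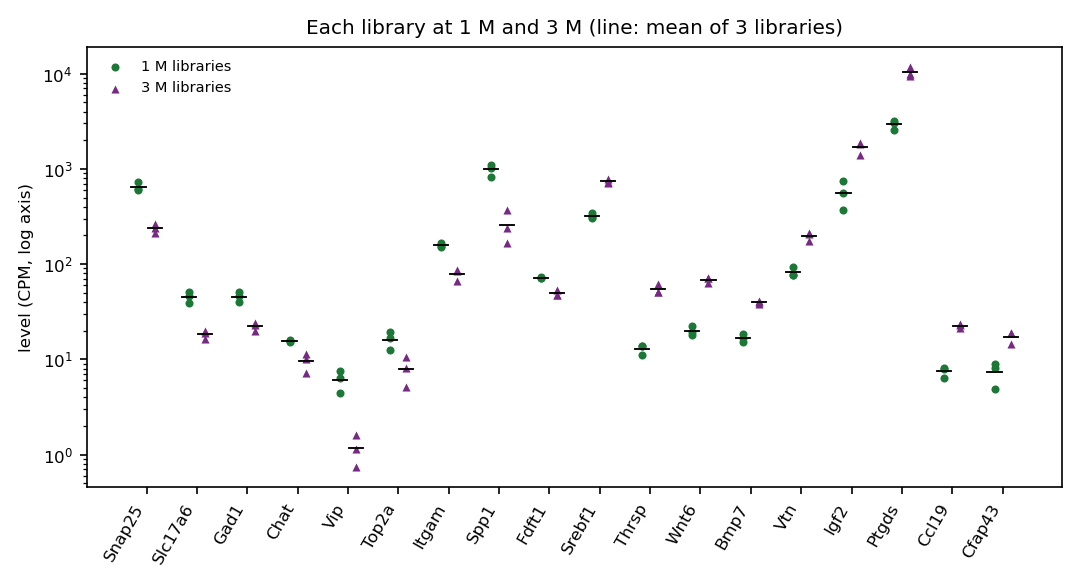
Levels in CPM on a log axis for 18 genes in each library at 1 M (green circles) and 3 M (purple triangles), with a line at the mean of the 3 libraries. For each gene shown all 3 libraries of one time lie above all 3 of the other, from Vip at 0.738 to 7.45 CPM to Ptgds at 2577 to 11731 CPM.

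Several genes of meningeal and perivascular fibroblasts rose. Ptgds, the prostaglandin D synthase that the leptomeninges secrete into cerebrospinal fluid, rose from a high level: 3033, 3197 and 2577 CPM at 1 M and 11731, 9856 and 9482 CPM at 3 M (1.82 ± 0.13, adjusted p = 0.00147). Which cells made the Ptgds RNA cannot be told in bulk tissue. Igf2, an insulin-like growth factor of meninges and choroid plexus, was at 372, 553 and 752 CPM against 1843, 1875 and 1406 CPM (1.61 ± 0.25). Of 16 fibroblast and meningeal genes 7 rose and none fell (median 0.52). They were the meningeal GABA transporter Slc6a13 (65.9, 79.2 and 79.4 CPM against 209, 196 and 186 CPM, 1.40 ± 0.10), the retinoic acid enzyme Aldh1a2 (1.33 ± 0.13), the gap junction gene Gjb2 (1.16 ± 0.15), Fbln1 (0.97 ± 0.08), Ranbp3l (0.96 ± 0.12), Pdgfrb (0.52 ± 0.09) and Igf2. Members tied to fibrillar scar were not past the test: Col1a1 showed 0.34 ± 0.15 (adjusted p = 0.198), Col3a1 0.32 ± 0.21 and Postn -0.36 ± 0.40. The count of 7 was 7 or 8 with any library left out. Slc22a6, an organic anion transporter, rose with them (8.67, 8.82 and 8.65 CPM against 28.6, 24.4 and 23.8 CPM, 1.55 ± 0.11). On the 11-library scale Ptgds averaged 7225 CPM in controls, 2816 CPM at 1 M and 9878 CPM at 3 M, so 1 M was the low group.

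Of 14 laminin and basement membrane genes 5 rose, of 16 collagens 3 rose, and of 16 pericyte and smooth muscle genes 5 rose, and none of the 3 lists had a member that fell. The laminin chain Lamb2 was at 265, 314 and 269 CPM at 1 M and at 506, 466 and 474 CPM at 3 M (0.77 ± 0.09). Vitronectin, Vtn, made by pericytes, was at 77.4, 76.5 and 94.0 CPM against 205, 212 and 177 CPM (1.26 ± 0.11). The smooth muscle genes Myh11 (0.89 ± 0.09) and Acta2 (0.96 ± 0.16) rose while Rgs5, a pericyte marker, was at 35.2 and 35.8 CPM (0.03 ± 0.21). The collagen genes past the test were Col18a1 (0.42 ± 0.08), Col6a1 (0.70 ± 0.16) and Col6a2 (0.66 ± 0.15), and each lost the call without 3 M replicate 1 (highest adjusted p over the 6 fits 0.0592, 0.108 and 0.104). With a library left out the laminin count was 6, 2, 7, 1, 1 and 3, the collagen count 3, 4, 3, 0, 3 and 1, and the pericyte count 6, 3, 5, 3, 5 and 3.

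Several BMP ligands and targets were upregulated. BMPs are secreted factors of the TGF-beta superfamily that act through Smad proteins and induce the Id genes. Of 29 TGF-beta and BMP genes 11 rose and none fell, with a median of 0.37, where 7.18% of all genes tested rose. The libraries of 18 did not overlap on the higher side, against 17.2% of all genes. Among the ligands, Bmp7 was at 16.6, 18.2 and 15.1 CPM at 1 M and at 40.5, 40.3 and 38.04 CPM at 3 M (1.25 ± 0.10, adjusted p = 0.00147), Bmp6 at 37.97, 55.3 and 51.2 CPM against 120.01, 108 and 104 CPM (1.20 ± 0.14), and Bmp5 had a log2 fold change of 1.08 ± 0.12. The extracellular BMP antagonist Chrd rose as well (0.98 ± 0.13). Targets moved the same way, with Id3 at 147, 132 and 119.6 CPM against 212, 217 and 272 CPM (0.81 ± 0.12) and Id2 at 0.53 ± 0.09. The receptors Bmpr1a (0.30 ± 0.24) and Bmpr2 (-0.18 ± 0.26) and the ligand Tgfb1 (-0.17 ± 0.12) did not pass. The count of 11 was 9, 8, 10, 6, 8 and 7 with a library left out.

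Of 21 WNT genes 8 rose, 1 fell and 12 did not pass, with a median of 0.28. Wnt6 was at 19.4, 22.5 and 17.8 CPM at 1 M and at 72.0, 62.7 and 71.8 CPM at 3 M (1.79 ± 0.11, adjusted p = 0.00147), an increase matched by none of the other members. Wnt4 (0.91 ± 0.11), Wnt5b (0.94 ± 0.10), Wnt10a (1.46 ± 0.26) and the secreted modulator Dkk3 (0.74 ± 0.11) also rose. The ligand that fell, Wnt7b, was at 23.2, 23.5 and 18.3 CPM against 12.3, 14.8 and 13.8 CPM (-0.67 ± 0.13), and it was not called in the fits without 1 M replicate 2, 3 M replicate 1 or 3 M replicate 3. Lef1 (-0.15 ± 0.09) and Ctnnb1 (0.16 ± 0.07), the nuclear effectors, did not pass. With a library left out 8, 6, 10, 5, 6 and 7 WNT genes rose.

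Genes of motile cilia, which in the cord belong to ependymal cells, numbered 16, of which 8 rose and none fell. The median over the list was 0.74, and the libraries of 13 did not overlap against 17.2% of all genes. Rfx2, a transcription factor of ciliated cells, was at 16.8, 18.7 and 15 CPM at 1 M and at 27.3, 26.4 and 29.2 CPM at 3 M (0.71 ± 0.11), and Ak7, an adenylate kinase of the axoneme, at 4.39, 5.74 and 6.14 CPM against 11.3, 10.7 and 10.3 CPM (1.00 ± 0.16). The axonemal gene Cfap43 was at 4.87, 8.05 and 8.95 CPM against 18.9, 18.7 and 14.4 CPM (1.26 ± 0.24) and passed except without 3 M replicate 1 or 2 (adjusted p up to 0.0573). Each of these genes was higher in every 3 M library than in any 1 M library. Tekt1 (0.04 ± 0.10) and Ccdc39 (0.15 ± 0.14) were members that did not pass. The count of 8 was 7, 5, 11, 2, 3 and 5 with a library left out.

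Glial genes changed in smaller number. Gfap, the astrocyte filament and the most abundant gene called, was at 16740 CPM in 1 M replicate 1, 15032 CPM in replicate 2 and 13581 CPM in replicate 3, and at 19579, 20511 and 19837 CPM at 3 M (0.40 ± 0.11, adjusted p = 0.0484). It sat at the threshold, and its adjusted p was between 0.0848 and 0.162 in the 5 fits that left out a library other than 1 M replicate 1. Among 17 reactive astrocyte genes 3 were higher and 1 was lower, and the count of 3 was 4, 0, 3, 0, 1 and 1 with a library left out. The lower member was Tnc, a matrix glycoprotein, at 59.3, 45.8 and 60.9 CPM against 33.9, 29.1 and 21.4 CPM (-0.98 ± 0.18), with an adjusted p of 0.0507 without 3 M replicate 2. Of 16 astrocyte transport genes 2 rose, Aldh1l1 (0.68 ± 0.10) and the connexin Gjb6 (0.75 ± 0.12), and 1 fell, the D-serine transporter Slc7a10, which was at 39.7, 43.4 and 24.2 CPM against 12.2, 15.4 and 9.68 CPM (-1.53 ± 0.25). Aqp4 (0.23 ± 0.17) and the glutamate transporter Slc1a2 (-0.48 ± 0.38) did not pass. Of 22 central myelin genes only Aspa passed (0.29 ± 0.08, adjusted p = 0.0496), and it did so in 1 of the 6 fits with a library left out. Mbp was at 24033 to 27091 CPM at 1 M and at 19152 to 22987 CPM at 3 M (-0.28 ± 0.11, adjusted p = 0.151), and the list median was -0.23. Among 11 genes of oligodendrocyte precursors and early oligodendrocytes, Enpp6 (-0.57 ± 0.07), Vcan (-0.61 ± 0.08) and Nkx2-2 (-0.55 ± 0.09) fell. Pdgfra, which fibroblasts also express, was higher at 3 M (0.60 ± 0.12) but not in the fits without 1 M replicate 2, 3 M replicate 1 or 3 M replicate 2 (adjusted p up to 0.0707). Of 17 Schwann cell genes 4 rose and 1 fell. Plekha4 was at 60.8, 76.0 and 83.2 CPM against 149, 132 and 168 CPM (1.03 ± 0.14), Fgl2 rose (0.68 ± 0.11) and Pmp2 fell (-0.68 ± 0.12). The peripheral myelin gene Prx (0.51 ± 0.19) did not pass. The Schwann cell count on the higher side was 4, 2, 8, 2, 2 and 2 with a library left out.

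No gene passed among 26 oxidative phosphorylation genes (median -0.19), 23 cytosolic ribosomal proteins (0.03), 27 chromatin modifiers (-0.07), 26 splicing factors (0.03) and 18 circadian clock genes (0.10). In the same order, 5, 0, 2, 0 and 3 of them had an unadjusted p under 0.05, against 4047 of the 14521 genes tested. DESeq2 called 1 oxidative phosphorylation gene and 3 clock genes and none of the other 3 lists. Few genes passed in several further lists, and most of their calls did not hold in every fit with a library left out. Over all genes tested 7.18% were higher and 7.56% lower, so 1 or 2 members of a list are not read as a change of that list. With 6 libraries 3 of 14 Notch genes were higher, 4 of 14 matrix protease and inhibitor genes were higher, 3 of 13 proteoglycan genes were higher and 2 lower, 2 of 19 endothelial genes were higher and 1 lower, 2 of 17 glycolysis genes were lower and 1 of 21 lysosomal genes was lower. In all 6 fits with a library left out, there passed 1 protease, 1 endothelial and 1 proteoglycan gene on the higher side, 2 proteoglycan genes on the lower side, and no Notch, glycolysis or lysosomal gene. Among markers of neighbouring tissue, 2 of 9 skeletal muscle genes fell (Pvalb, which spinal interneurons also express, and Acta1, the latter with an adjusted p of up to 0.135 with a library left out), and the summed level of the list was 53.3 to 79.7 CPM at 1 M and 43.2 to 48.3 CPM at 3 M.

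Several genes stood out by size alone. Gfra3, the receptor of the neurotrophic factor artemin, was at 1.41, 1.39 and 1.19 CPM at 1 M and at 4.97, 5.32 and 6.22 CPM at 3 M (2.04 ± 0.18). Sh3rf2 (2.25 ± 0.25), the alkaline phosphatase gene Alppl2 (2.02 ± 0.22) and the pigment cell antigen Mlana (1.99 ± 0.24) were upregulated to a like extent from levels of 0.485 to 1.20 CPM. The larger increases described here rested on few counts or single libraries. Klk1c9, a kallikrein, had 12 counts at 1 M and 59 at 3 M (2.72 ± 0.67), with an adjusted p of up to 0.114 with a library left out. On the lower side Olfm3, a secreted olfactomedin of neurons, fell from 12.7, 8.25 and 12.1 CPM to 3.22, 3.78 and 2.89 CPM (-1.74 ± 0.21). Psca was at 6.86, 1.81 and 1.62 CPM against 0.660, 0.578 and 0.657 CPM (-2.48 ± 0.62), with 1 M replicate 1 far above its replicates and an adjusted p of up to 0.125 when a 3 M library was left out. Defb17, a defensin gene that was not called without 1 M replicate 2, 3 M replicate 2 or 3 M replicate 3, had 47 counts at 1 M and 3 at 3 M, a ratio of 12.0 with a 95% exact conditional interval of 3.87 to 60.4 that covers counting error only. Among abundant genes, Pla2g7, which degrades platelet-activating factor, rose from 661, 618 and 638 CPM to 1161, 1184 and 1137 CPM (0.86 ± 0.08), Aebp1, a matrix protein of fibroblasts, rose by 0.74 ± 0.09, and Zwint (-0.92 ± 0.13), a kinetochore gene that neurons express strongly, and the microtubule protein Map1a (-0.62 ± 0.09) fell.

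Long non-coding RNAs took part in both directions. Miat, a nuclear lncRNA abundant in neurons, was at 226, 217 and 198 CPM at 1 M and at 107, 95.8 and 81.4 CPM at 3 M (-1.17 ± 0.11, adjusted p = 0.00166). LOC102551701 fell from 6.05, 5.51 and 4.77 CPM to 0.777, 0.887 and 0.964 CPM (-2.64 ± 0.20). On the 11-library scale its mean was 0.665 CPM in controls and 5.22 CPM at 1 M, which sets it beside Ucn as a gene high at 1 M only. LOC102546820 fell by 1.10 ± 0.10, and LOC102550957 (1.21 ± 0.14) and ENSRNOG00000057903 (0.91 ± 0.09) rose. The share of lncRNAs called was 5.24% on the higher side and 5.78% on the lower side, against 7.31% and 7.68% of protein-coding genes.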

How the data were processed

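Libraries were poly-A selected, made with a TruSeq kit and sequenced as read pairs. The submitters' notes name CASAVA 1.7, TopHat2 2.1.0, HTSeq and Cufflinks 2.2.1, and reads were aligned to Rnor6. The deposited raw counts per gene were made by the authors with HTSeq; its version, and how strand was handled, were not stated in the sources read, so overlapping antisense genes cannot be separated. The deposited FPKM values were made by the authors with Cufflinks, with values under 0.1 set to 0.1. FPKM chose the genes, and counts were tested with edgeR 4.0.16 (TMM scaling, robust quasi-likelihood fit, Benjamini-Hochberg adjustment) in R 4.3.3. Alternatives used DESeq2 1.42.0 and limma 3.58.1. Groups came from the labels. Replicate numbers did not mark shared animals and did not pair libraries. The members and lists were chosen with earlier results of these data known, and lists are described by counts with no set test. Named genes are the 12 highest and 12 lowest fold changes and the 8 most abundant per direction among called genes with separated libraries, up to 6 members of smallest p per list, defining members, and up to 6 lncRNAs per direction. Members given as not past the test, and those of promoters holding both motifs, were picked after values were seen. P-values measure the spread between pooled libraries. In simulated counts, 100 genes were changed for each fold, all with a mean over 1 CPM, and the spread followed the dispersion trend alone. The test recovered 86% of 2-fold and 100% of 4-fold changes there, with 7 of 14321 unchanged genes called. Changes in genes of lower level, and single deviating libraries, were not simulated, so these figures do not cover them. Intervals and limits of low counts cover counting error only. Some list members are counted but not reported by name here.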

Additional observations from a re-analysis of the deposited data

How the results depend on the processing

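DESeq2 size factors, total counts, upper quartile scaling, filterByExpr, no filter, halved counts for 1 M replicate 1 (whose total exceeds its listed read pairs) and removal of a gene length trend kept both counts of called genes within 1.5 times and every gene in its direction. In limma on log2(FPKM + 1) and log2(FPKM + 0.1), 2139 of the 2140 genes called kept their direction, and downregulated DEGs numbered 72 and 126. DESeq2's Wald test gave 233 upregulated DEGs. A fit of all 11 libraries called 734 genes up and 484 down, 60.3% higher against 48.7%, with 77 and 17 DEGs. With the replicate number as a block, 343 genes rose and 424 fell and no DEG was left, and same-numbered libraries did not deviate together (r = -0.516, -0.198 and -0.539), so the numbers give no pairing. Leaving out 1 library gave 420 to 1093 upregulated and 494 to 1289 downregulated genes, and 0 to 157 and 0 to 259 DEGs; the lowest counts came without 3 M replicate 1, and no DEG was left without it or without 1 M replicate 2. Of 240 called genes followed singly, 134 passed in every fit with a library left out.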

Other observations

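Hox genes, which mark position along the body axis, did not move as a block. Of 22 tested, 5 were higher and 2 lower at 3 M, where 7.18% and 7.56% of all genes were. Hoxc5 was at 6.26, 6.82 and 4.99 CPM at 1 M and at 12.0, 11.5 and 15.3 CPM at 3 M (1.10 ± 0.17), and Hoxc6 also rose (0.73 ± 0.10), while Hoxb9 went from 7.28, 7.17 and 6.95 CPM to 4.12, 4.16 and 3.9 CPM (-0.81 ± 0.13). The more caudal Hoxc10 showed -1.02 ± 0.24, with an adjusted p of up to 0.107 without a 3 M library. With a library left out, 4, 4, 4, 2, 4 and 3 Hox genes were higher and 2, 2, 3, 1, 1 and 1 lower, the 6 numbers standing for 1 M replicates 1 to 3 and 3 M replicates 1 to 3. Of 29 axon guidance genes 4 were higher and 3 lower, counts that became 4, 2, 5, 2, 4 and 2 and 4, 2, 3, 2, 2 and 3 with a library left out. The semaphorin Sema3b, a meningeal and fibroblast gene in part, was at 150.4, 169.8 and 158 CPM against 315, 306 and 339 CPM (1.00 ± 0.08), while Slit1 (-0.82 ± 0.13) and the ephrin receptor Ephb1 (-0.60 ± 0.08) fell.

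Immunoglobulin RNA was read mainly in a single library. Igkc, the kappa light chain constant gene, was at 3.48, 2.43 and 1.66 CPM at 1 M and at 3.65, 2.55 and 41.6 CPM at 3 M, and Igh-1a at 0.756, 0.0385 and 0.426 CPM against 0.854, 0.309 and 59.7 CPM. The lipoxygenase gene Alox15 was at 2.16, 2.12 and 2.13 CPM against 2.87, 2.24 and 58.9 CPM. In all 3 cases the high library was 3 M replicate 3, the same that held the most red blood cell RNA and the highest Ccl5, and none of the 3 genes passed (adjusted p 0.149, 0.111 and 0.126). They were chosen after their values were seen.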
